A study of Mus musculus with 9 samples.

Results

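Hilpda, G0s2, the perilipins Plin2, Plin3, Plin4 and Plin5, Cidec, Pnpla2, Abhd5 and Mgll are 10 genes of the lipid droplet and of the breakdown of the fat it stores. They were taken by gene symbol from RNA-seq values of mouse liver, 10 of the 54532 genes in the table. Values are in FPKM, the fragments on a gene scaled to its length and, in these data, to a size factor of the library in place of its total reads. All 10 genes averaged at least 1 FPKM. The genes were chosen by their role and by FPKM in these same libraries, Hilpda because it had the largest fall of all genes tested from the APAP group to the AMSC group. Acetaminophen (APAP) overdose injures hepatocytes, and the study asked how adipose-derived mesenchymal stem cells (AMSCs) change the injured liver. The livers came from male C57BL/6 mice aged 5 to 7 weeks, 3 in each group. Mice of the APAP group were fasted overnight, received 500 mg/kg APAP and were studied after 6 h. Mice of the AMSC group were fasted in the same way, received the same dose of APAP and directly afterwards 200000 AMSCs through the tail vein. They were also studied after 6 h. The AMSCs were grown from inguinal fat of C57BL/6 mice, so their reads cannot be told apart from those of the host. NC is the control group without APAP. Whether NC mice were fasted or injected is not given in the sources used here, so the effects of APAP and of fasting cannot be told apart in any comparison with the NC group.

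Hepatocytes store surplus fatty acids as triglyceride in lipid droplets, which are coated by perilipins. PLIN2 is the main coat protein of the hepatocyte droplet, PLIN5 links droplets to mitochondria, PLIN3 moves between cytosol and droplet, PLIN4 is best known from fat tissue, and CIDEC makes droplets fuse and grow. ATGL, the product of Pnpla2, cuts the first fatty acid from triglyceride and is activated by ABHD5, and MGLL cuts the last one from monoglyceride. HILPDA and G0S2 bind and inhibit ATGL, and Hilpda is a classic gene induced by low oxygen and by fatty acids.

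Each library held 13418921 to 16210930 reads on genes. The list of 10 hepatocyte markers summed to 43944 to 46968 FPKM in NC livers, 59913 to 68139 FPKM in APAP livers and 55816 to 57988 FPKM in AMSC livers. Of 9 adipocyte markers, 6 stayed under 1 FPKM in every liver. Plin1, the perilipin that defines white fat cells, was at 0 in 8 livers and at 0.0271 FPKM in AMSC replicate 2, and Adipoq did not exceed 0.162 FPKM. NC replicate 3 carries another date in its title than the other 8 libraries. Without it, the members called differentially expressed against the NC group were the same as with it.

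A gene was called a DEG (differentially expressed gene) where limma over 9699 genes gave an adjusted p within 0.05 and log2(FPKM + 1) differed by 1 or more. The comparisons are written APAP versus NC, AMSC versus APAP and AMSC versus NC, with log2 differences as the first group minus the second. Hilpda was taken up for its values in these libraries, so its levels and differences are given as a description with no test, and the counts of DEGs are over the 9 other members. Of these 9, 2 were DEGs for APAP versus NC and both were higher, namely Plin2 and Cidec, where 7.9% of all genes tested were DEGs, 5.09% higher and 2.8% lower. AMSC versus APAP gave 2 DEGs, Plin4 and Plin5, both higher, where 1.96% of all genes tested were DEGs, 0.742% higher and 1.22% lower. AMSC versus NC gave 6, of which 5 were higher and G0s2 was lower, where 6.01% of all genes tested were DEGs, 3.92% higher and 2.09% lower. Without the minimum difference, 5, 2 and 6 of the 9 passed in these comparisons, as did 25.9%, 3.78% and 26% of all genes tested. The other members were also chosen with earlier results known, and their adjusted p-values are those of the fit over all genes and no independent support for the choice.

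**Figure D1:**
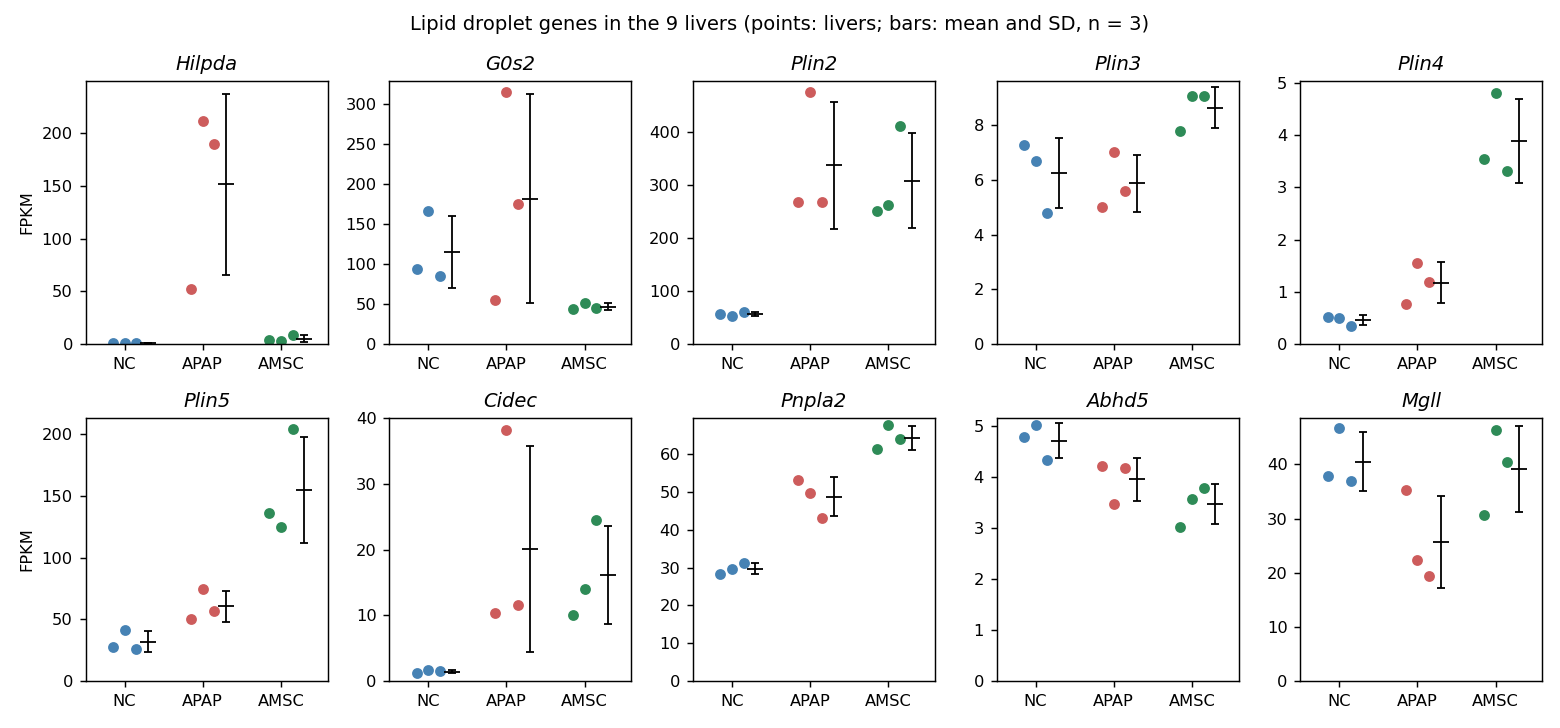
FPKM of the 10 genes in each liver, by group (points, livers; horizontal tick and bar, mean and SD, n = 3). Each panel has its own vertical axis from 0. Hilpda was high in the APAP group only, Plin2 and Cidec were high in the APAP and AMSC groups, and Plin4, Plin5 and Pnpla2 were highest in the AMSC group.

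The starts of Hilpda, Plin2 and Cidec, all higher in each APAP liver than in any NC liver, are shown because Hilpda was low again in the AMSC group while Plin2 and Cidec were not. Each window holds 250 bases before and 30 after a RefSeq transcript start on GRCm38.p6, read 5′ to 3′ on the gene's strand, with capitals for matches to motifs searched on both strands. The motifs were ACGTG and GCGTG (core of the hypoxia response element), TGANTCA, TGACGTCA (cyclic AMP response element), and the PPAR element and the glucocorticoid response element in their full forms. TGANTCA is a loose form of the AP-1 site, with any base in the middle, while the AP-1 consensus is TGACTCA or TGAGTCA.
Hilpda, chr6:29272238-29272517, plus strand: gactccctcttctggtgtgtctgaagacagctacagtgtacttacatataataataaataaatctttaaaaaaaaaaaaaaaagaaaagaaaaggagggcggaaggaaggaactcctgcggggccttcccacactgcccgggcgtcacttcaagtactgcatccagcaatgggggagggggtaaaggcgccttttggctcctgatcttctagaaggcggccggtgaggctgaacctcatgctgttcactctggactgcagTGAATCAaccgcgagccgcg
Plin2, chr4:86670030-86670309, minus strand: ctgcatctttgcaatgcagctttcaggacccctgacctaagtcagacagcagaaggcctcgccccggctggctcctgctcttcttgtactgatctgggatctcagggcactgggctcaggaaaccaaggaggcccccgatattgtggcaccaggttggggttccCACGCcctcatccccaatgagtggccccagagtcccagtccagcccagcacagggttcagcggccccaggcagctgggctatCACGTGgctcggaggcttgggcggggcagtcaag
Cidec, chr6:113435731-113436010, minus strand: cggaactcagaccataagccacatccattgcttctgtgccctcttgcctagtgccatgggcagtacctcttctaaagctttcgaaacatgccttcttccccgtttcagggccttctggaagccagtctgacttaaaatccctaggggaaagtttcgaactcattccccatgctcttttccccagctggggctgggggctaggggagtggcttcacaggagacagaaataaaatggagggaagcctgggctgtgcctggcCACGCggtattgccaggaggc

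The window of Hilpda held TGAATCA, which matches the loose form TGANTCA but not the AP-1 consensus, and no hypoxia core. A second RefSeq start of Hilpda lies 138 bases downstream, and its window held 1 ACGTG and 2 GCGTG matches along with the same TGAATCA. The window of Plin2 held CACGTG, in which ACGTG reads on both strands and overlaps itself, and CACGC, which is GCGTG on the other strand. The window of Cidec shown held CACGC just after the start, and the window of its second RefSeq start held GCGTG and TGACTCA. Over the 14 windows of the 10 members, ACGTG stood in 4 windows of 3 genes (Hilpda, Plin2 and Mgll) and GCGTG in 10 windows of 7 genes. TGANTCA stood in 4 windows of 3 genes, for Hilpda as TGAATCA and for Plin5 and Cidec as TGACTCA. The windows of Hilpda overlap, as do those of Plin5, so the same site can be counted in both windows. Of 32851 mouse windows of the same length, 18.5% held ACGTG, 30.8% held GCGTG and 7.46% held TGANTCA. None of the 14 windows held TGACGTCA, the PPAR element or the glucocorticoid response element, which stood in 1.74%, 0.362% and 0.435% of all windows. These matches describe letters and were not tested for binding.

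Of the ATGL inhibitors, Hilpda (ENSMUSG00000043421, GRCm38 chr6:29272488-29275446) stood at 0.815, 1.21 and 1.47 FPKM in the NC livers, at 52.7, 212 and 189.5 FPKM in the APAP livers and at 4.34, 2.93 and 8.63 FPKM in the AMSC livers. The 3 groups did not overlap, and the lowest APAP liver, replicate 1, was still above the highest AMSC liver. The means were 1.17 ± 0.332, 151 ± 86.1 and 5.30 ± 2.97 FPKM (SD, n = 3 livers). On the scale of log2(FPKM + 1), the difference was 5.92 (SE 0.48) for APAP versus NC, the 9th highest of the 9699 genes tested. It was -4.47 (SE 0.54) for AMSC versus APAP, the lowest of all genes tested, and 1.45 (SE 0.30) for AMSC versus NC. The low NC values rest on 15 to 28 reads per library, against 780 to 2896 in the APAP group and 42 to 143 in the AMSC group. On the scale of log2(FPKM + 1), the difference from the NC group in AMSC livers was 0.97 with the replicate number as a block. That estimate rests on replicates 2 and 3 alone, the numbers that both groups share.

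Macrophages also express Hilpda, and all 12 macrophage markers had fitted differences below 0 for AMSC versus APAP. Their median log2 difference was -1.21, where that of all genes tested was 0.01. For 7 of the 12 the AMSC livers were all below the APAP livers, where 27% of all genes tested did not overlap in either direction. In limma 11 reached an unadjusted p under 0.05, and voom on the recovered reads gave 2 DEGs. With limma 1 of these markers was a DEG, beside 1.96% of all genes tested. It was Cd68 (log2 fold change -1.24, adjusted p = 0.0267 from limma), a call that was lost without APAP replicate 3 (0.0852), AMSC replicate 2 (0.0805) or AMSC replicate 4 (0.0567) and with all 24849 genes above 0 in the fit (0.143). The summed level of the 12 markers was 134 to 261 FPKM in NC livers, 193 to 510 FPKM in APAP livers and 118 to 188 FPKM in AMSC livers, and no marker of the list was under 1 FPKM in all livers. In APAP replicates 1, 2 and 3 the macrophage sums were 354, 193 and 510 FPKM, beside Hilpda values of 52.7, 212 and 189.5 FPKM. Cyp2e1, the hepatocyte enzyme that activates APAP, averaged 3408 ± 181 FPKM in NC livers, 847 ± 635 FPKM in APAP livers and 3619 ± 199 FPKM in AMSC livers (adjusted p = 0.0474 from limma for AMSC versus APAP, and over 0.05 without APAP replicate 3 or any one AMSC liver). It was also over 0.05 with a pseudocount of 0.1, a minimum of 5 FPKM, quantile normalization and all genes above 0 in the fit. Cyp2e1 was not typical of its list. Of the 10 hepatocyte markers, 8 had fitted differences above 0 and 2 below 0 for APAP versus NC. For AMSC versus APAP 4 were above 0 and 6 below. The part of cell type in the Hilpda difference was not tested. In whole liver, fewer cells of a type and less RNA per cell cannot be told apart.

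G0s2 (ENSMUSG00000009633, chr1:193272161-193273217) read 93.5, 167 and 84.7 FPKM in the NC livers, 55.04, 316 and 176 FPKM in the APAP livers and 43.7, 51.7 and 45.2 FPKM in the AMSC livers. The APAP livers spread around the NC livers on both sides, whereas all AMSC livers were below every other liver. Against the NC group the APAP group differed by 0.40 on the log2 scale (SE 0.58, 95% interval -0.95 to 1.75, adjusted p = 0.650 from limma). For AMSC versus NC, G0s2 was a DEG and lower, at 46.9 ± 4.22 against 115 ± 45.1 FPKM (log2 fold change -1.21, SE 0.24, adjusted p = 0.00780), a call that was lost without NC replicate 2 (log2 fold change -0.91) with all 9 libraries in a single fit (adjusted p = 0.125) and with all genes above 0 in the fit (0.0757). Against the APAP group the difference of -1.62 (SE 0.54) missed the threshold (adjusted p = 0.147 from limma). Without APAP replicate 1, the lowest APAP liver, it was -2.31 with an adjusted p of 0.00595. G0s2 lies within the span of Lamb3 on the other strand but shares no exon base with it.

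Hilpda and G0s2 stood in different proportion in each group. Hilpda made up 0.414% of the summed FPKM of the 10 members in the NC group, 17.3% in the APAP group and 0.782% in the AMSC group, while G0s2 made up 39.0%, 19.8% and 7.43%. Per unit of Pnpla2, the lipase that both inhibit, the summed FPKM of Hilpda and G0s2 was 3.34, 5.66 and 2.75 in the NC livers and 2.02, 10.6 and 8.45 in the APAP livers. It was 0.784, 0.806 and 0.840 in the AMSC livers, so that only in these livers did the lipase transcript exceed the sum of its inhibitors. The AMSC livers lay below all 6 other livers in this ratio, and the NC and APAP livers overlapped.

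Plin2 (ENSMUSG00000028494, chr4:86648386-86670060) rose for APAP versus NC and for AMSC versus NC. It read 56.2, 53.3 and 61.4 FPKM in the NC livers, 267, 475 and 268 FPKM in the APAP livers and 251, 262 and 411 FPKM in the AMSC livers. Every APAP and AMSC liver was above every NC liver, and the APAP and AMSC livers overlapped. The log2 difference was 2.49 (SE 0.23, adjusted p = 0.000434 from limma) for APAP versus NC and 2.38 (SE 0.19, adjusted p = 0.000114) for AMSC versus NC. Between the AMSC and APAP groups it was -0.11 with a 95% interval from -0.76 to 0.54 (adjusted p = 0.864). The FPKM of Hilpda per Plin2 was 0.0204 in the NC group, 0.450 in the APAP group and 0.0165 in the AMSC group.

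Cidec (ENSMUSG00000030278, chr6:113424634-113435760) followed a similar course at a lower level. Its FPKM was 1.13, 1.59 and 1.53 in the NC livers, 10.4, 38.2 and 11.6 in the APAP livers and 9.97, 14.0 and 24.5 in the AMSC livers. The NC livers stood apart from the other 6, and APAP replicate 2 was the highest. The log2 difference was 2.88 (SE 0.43, adjusted p = 0.00329 from limma) for APAP versus NC and 2.74 (SE 0.27, adjusted p = 0.000361) for AMSC versus NC. Between the AMSC and APAP groups it was -0.14, with a 95% interval from -1.29 to 1.01 (adjusted p = 0.907).

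Plin5 (ENSMUSG00000011305, chr17:56111601-56117596), the perilipin of droplets next to mitochondria, was highest in the AMSC group. It read 27.8, 41.3 and 25.6 FPKM in the NC livers, 50.2, 74.5 and 56.9 FPKM in the APAP livers and 136, 124.5 and 204 FPKM in the AMSC livers. The 3 groups did not overlap. Plin5 rose for AMSC versus APAP (log2 fold change 1.33, SE 0.23, adjusted p = 0.0262 from limma) and against the NC group (2.25, SE 0.23, adjusted p = 0.000408). For APAP versus NC the log2 difference of 0.93 (SE 0.22, adjusted p = 0.0186) was under the minimum of 1, which it reached without NC replicate 2 (1.13) or without APAP replicate 1 (1.05).

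Plin4 (ENSMUSG00000002831, chr17:56100591-56109803) lies 1797 bases from Plin5 on the same strand and was the least abundant member in the NC group. Its FPKM was 0.529, 0.510 and 0.352 in the NC livers, 0.774, 1.55 and 1.20 in the APAP livers and 3.54, 4.81 and 3.31 in the AMSC livers, again with no overlap between groups. Plin4 rose for AMSC versus APAP (log2 fold change 1.17, SE 0.18, adjusted p = 0.0190 from limma) and against the NC group (1.73, SE 0.14, adjusted p = 0.000133). Its log2 difference for APAP versus NC was 0.56 (SE 0.16, adjusted p = 0.0423), and it was a DEG with a pseudocount of 0.1 (1.14) and with voom on the recovered reads (1.29). Of its exon bases 17 are shared with Hdgfl2 on the other strand, and whether the counting used strand is not given in the sources used here. The calls of Plin4 and Plin5 for AMSC versus APAP were both lost without APAP replicate 3 or without any one AMSC liver, with adjusted p-values from 0.0535 to 0.0824, and with all genes above 0 in the fit (0.122 and 0.142).

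Plin3 (ENSMUSG00000024197, chr17:56277476-56292873), the perilipin found in most tissues, was a DEG in none of the 3 comparisons. It read 7.25, 6.69 and 4.80 FPKM in the NC livers, 5.002, 7.01 and 5.58 FPKM in the APAP livers and 7.77, 9.04 and 9.07 FPKM in the AMSC livers. The AMSC livers were above all others, with a log2 difference of 0.50 from the APAP group (95% interval 0.16 to 0.83, adjusted p = 0.112 from limma) and of 0.42 from the NC group (0.08 to 0.77, adjusted p = 0.0734).

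The perilipin transcripts also differed in make-up between the groups. The summed FPKM of the 4 perilipins was 95.2 ± 5.70 in the NC group, 404 ± 133 in the APAP group and 475 ± 132 in the AMSC group. Plin2 made up 60.1% ± 7.21 of this sum in the NC group, 82.9% ± 2.15 in the APAP group and 64.6% ± 1.43 (SD over 3 livers) in the AMSC group. Plin5 made up 32.9% ± 6.79, 15.3% ± 1.90 and 32.6% ± 1.53 in the same order. In both shares the APAP livers stood apart from the NC and from the AMSC livers, and the NC and AMSC livers overlapped.

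**Figure D2:**
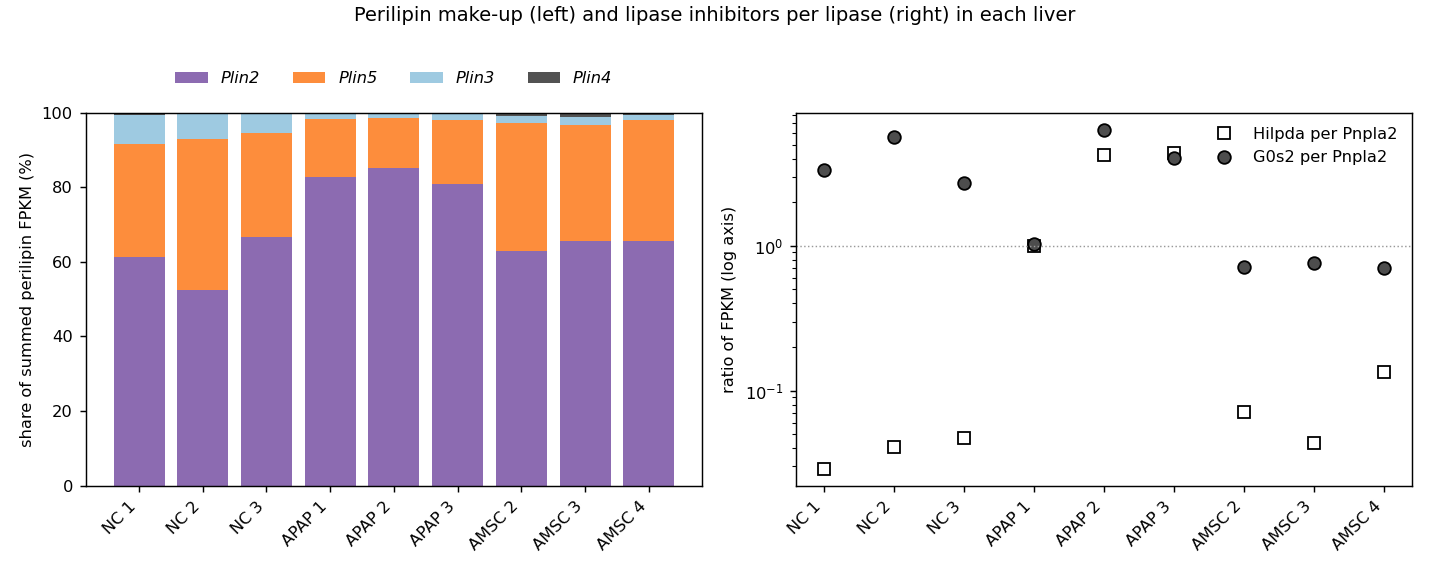
Left, share of Plin2, Plin5, Plin3 and Plin4 in their summed FPKM in each liver (percent, stacked bars). Right, FPKM of Hilpda (squares) and of G0s2 (circles) divided by that of Pnpla2 in each liver, on a log axis, with a dotted line at equal values. The share of Plin5 was lowest in the 3 APAP livers. G0s2 per Pnpla2 was under 1 only in the 3 AMSC livers. Hilpda per Pnpla2 was under 1 in the AMSC livers, in the NC livers and in APAP replicate 1 (0.989).

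Of the lipolytic genes, Pnpla2 (ENSMUSG00000025509, chr7:141455198-141460743) was lowest in the NC group and highest in the AMSC group. It read 28.2, 29.7 and 31.3 FPKM in the NC livers, 53.3, 49.7 and 43.2 FPKM in the APAP livers and 61.3, 67.7 and 64.1 FPKM in the AMSC livers. No 2 groups overlapped. It was a DEG for AMSC versus NC, with a log2 difference of 1.09 (SE 0.10, adjusted p = 0.000228 from limma). The APAP group passed the adjusted p against the NC group but not the minimum fold change (0.69, SE 0.13, adjusted p = 0.00733), and the AMSC group differed from the APAP group by 0.40 (95% interval 0.10 to 0.70, adjusted p = 0.136).

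Abhd5 (ENSMUSG00000032540, chr9:122351608-122381524), the activator of this lipase, was a DEG in none of the comparisons. It read 4.77, 5.02 and 4.33 FPKM in the NC livers, 4.21, 3.47 and 4.17 FPKM in the APAP livers and 3.02, 3.57 and 3.79 FPKM in the AMSC livers. The NC livers were above all others, and the APAP and AMSC livers overlapped. The log2 difference from the NC group was -0.21 (95% interval -0.48 to 0.07, adjusted p = 0.237 from limma) in the APAP group and -0.36 (-0.62 to -0.10, adjusted p = 0.0507) in the AMSC group. The FPKM of Pnpla2 per Abhd5 was 6.36 in the NC group, 12.5 in the APAP group and 18.7 in the AMSC group. Abhd5 shares 950 exon bases with the antisense gene A730085K08Rik, which had at most 0.0331 FPKM.

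Mgll (ENSMUSG00000033174, chr6:88724412-88828360) read 37.8, 46.7 and 36.9 FPKM in the NC livers, 35.2, 22.3 and 19.4 FPKM in the APAP livers and 30.7, 46.4 and 40.4 FPKM in the AMSC livers. The NC and APAP livers did not overlap, and the AMSC livers overlapped with both. The log2 difference of the APAP group from the NC group was -0.68 (95% interval -1.19 to -0.16, adjusted p = 0.0596 from limma), and that of the AMSC group from the APAP group was 0.62 (0.06 to 1.18, adjusted p = 0.203). Mgll was not a DEG in any comparison.

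**Figure D3:**
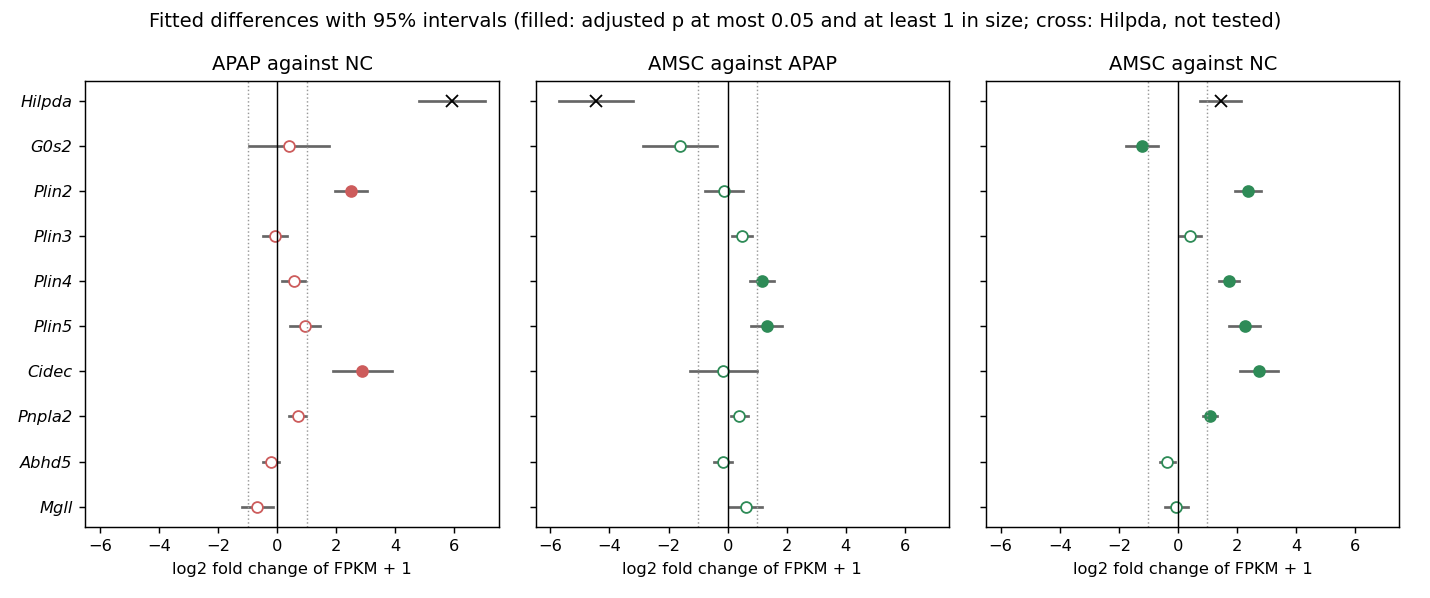
Fitted differences of the 10 genes in log2(FPKM + 1) in the 3 comparisons, with 95% intervals. Filled points are DEGs, open points are not, crosses mark Hilpda, which was not tested, and dotted lines mark the minimum of 1 in either direction. Hilpda lies farthest from 0 in the 2 comparisons with the APAP group, at 5.92 and -4.47, while the interval of Plin2 spans 0 for AMSC versus APAP. The comparisons share libraries and are not independent.

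The order of the levels changed between groups. In the NC group G0s2 was the most abundant member, followed by Plin2, and Mgll, Plin5 and Pnpla2 followed with overlapping ranges. Plin3 and Abhd5 overlapped below them, and so did Cidec and Hilpda, while Plin4 was lowest and apart from Hilpda. In the APAP group Plin2, G0s2, Hilpda, Plin5 and Pnpla2 formed a series in which each range overlapped with the next, above Mgll and Cidec. In the AMSC group Plin2, Plin5 and Pnpla2 came first with ranges apart, then G0s2 and Mgll, then Cidec, and the ranges of Plin3, Hilpda, Plin4 and Abhd5 followed with each overlapping the next.

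Groups that do not overlap were common over all genes, at 43.2% for APAP versus NC, 27% for AMSC versus APAP and 43.5% for AMSC versus NC. Among the 9 members other than Hilpda, 7, 5 and 8 did not overlap in these comparisons. The median log2 fold change of these 9 was 0.56, 0.40 and 1.09, where the median of all genes tested lay within 0.02 of 0.

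Of 32 other lipid droplet genes on a list, including further lipases, carboxylesterases and droplet assembly factors, 31 were in the table and 26 were tested. Fitm1, which partitions triglyceride into budding droplets, was the only DEG among them for APAP versus NC and for AMSC versus APAP (beside the 7.9% and 1.96% of all genes tested). By the adjusted p alone 8 of the 26 passed for APAP versus NC, beside 25.9% of all genes tested. Fitm1 averaged 14.5 ± 1.87 FPKM in NC livers and fell to 2.15 ± 0.833 FPKM in APAP livers (log2 fold change -2.32, SE 0.20, adjusted p = 0.000319 from limma). In the AMSC group it stood at 9.17 ± 0.655 FPKM, higher than in the APAP group (1.72, SE 0.19, adjusted p = 0.00643, and 0.0836 with all genes above 0 in the fit). No gene of this list was a DEG for AMSC versus NC with limma, where 6 passed the adjusted p alone and 9 an unadjusted p under 0.05, and voom on the recovered reads gave 1. The median log2 fold change of the 26 genes was -0.03, -0.08 and -0.16 in the 3 comparisons.

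A list of 22 genes held enzymes of triglyceride synthesis, proteins of lipoprotein export and Pdia4, a protein disulfide isomerase of the endoplasmic reticulum, and 21 of them were tested. APAP versus NC gave 3 that rose, all of them enzymes of triglyceride synthesis, and 2 that fell, beside 5.09% higher and 2.8% lower of all genes tested. Gpat3, which adds the first fatty acid to glycerol phosphate, rose from 1.21 to 13.3 FPKM (log2 fold change 2.63, adjusted p = 0.000526 from limma). Lpin2 and Lpin1, which make diacylglycerol, rose by 1.96 and 1.22 on the log2 scale (adjusted p = 0.00191 and 0.00495). Agpat1, which adds the second fatty acid, and Pdia4 fell. None of the 21 was a DEG for AMSC versus APAP with limma, beside 1.96% of all genes tested. In that comparison 2 passed the adjusted p alone (3.78% of all genes tested) and 4 an unadjusted p under 0.05, and voom gave 1. Of 16 genes of fatty acid and lipoprotein uptake 14 were tested, and their median log2 difference was 0.20 for APAP versus NC, -0.14 for AMSC versus APAP and 0.02 for AMSC versus NC.

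The genes with the profile nearest to that of Hilpda over the 9 livers were Dusp5, Cd14, Nr4a1, Gm22107 and Tiparp. The measure was the mean absolute difference of log2(FPKM + 1) relative to the NC mean, which was 0.500 for Dusp5, 0.549 for Cd14, 0.909 for Nr4a1, and 0.934 for Gm22107, with Tiparp next. Dusp5, a phosphatase of ERK, stood at 0.356 ± 0.0297 FPKM in NC livers, 52.5 ± 31.4 FPKM in APAP livers and 2.69 ± 0.519 FPKM in AMSC livers. Cd14, the co-receptor for lipopolysaccharide, stood at 1.26 ± 0.196, 83.9 ± 36.6 and 8.17 ± 4.01 FPKM in the same order. The genes nearest to Plin2 were Arid5a (0.163), Sesn2 (0.185), Trib1 (0.185), Fbf1 (0.202) and Brd2 (0.229). Trib1, a pseudokinase, stood at 7.62 ± 0.293, 55.7 ± 18.4 and 43.3 ± 0.975 FPKM.

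**Figure D4:**
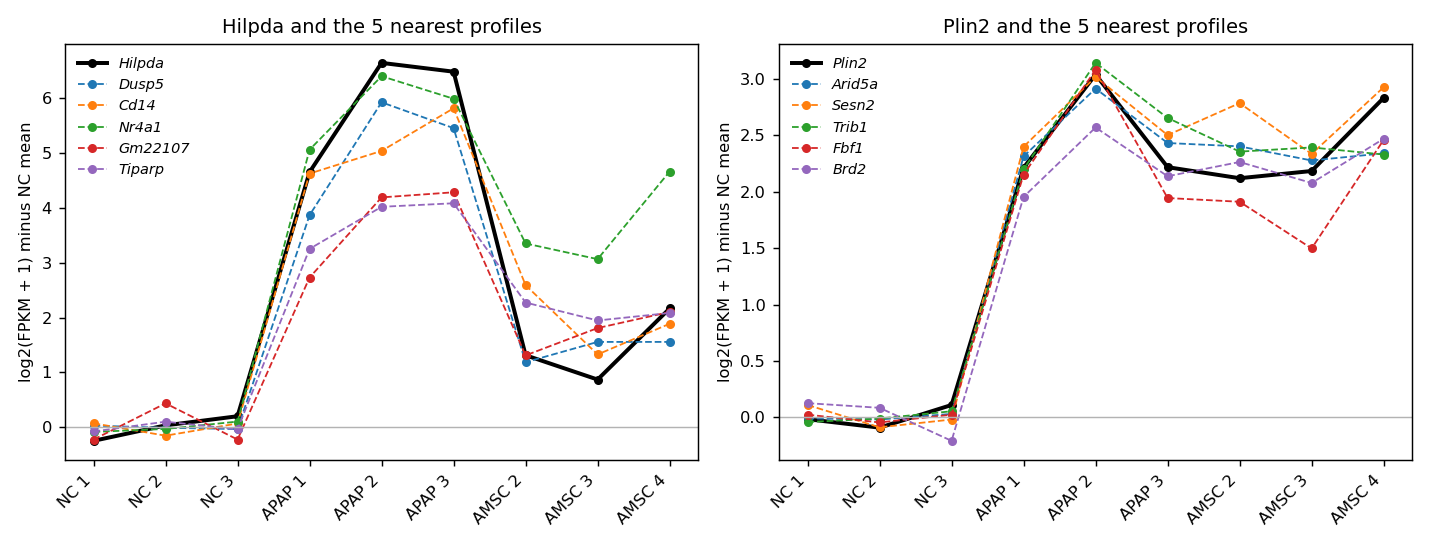
Hilpda (left) and Plin2 (right) with the 5 genes of nearest profile in each liver, as log2(FPKM + 1) minus the mean of the NC livers. Solid black lines are Hilpda and Plin2, and lines join livers only to guide the eye. The Hilpda group is high in the 3 APAP livers and lower in the 3 AMSC livers, and the Plin2 group is high in both.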

How the data were processed

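RNA-seq was performed on 9 mouse livers. The authors deposited FPKM per gene, with the gene lengths used, on GRCm38 (mm10) per the labels' processing notes. The aligner and the counting program are not given in the sources used here. FPKM times gene length gave whole multiples of a step (within 0.1) for 100% of the values, so reads could be recovered, and 1 read on 1 kilobase was worth 0.0578 to 0.0807 FPKM. The denominators followed median-of-ratios size factors. Gene positions matched GENCODE vM21 for 98.33% of shared identifiers.

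Groups were taken from the labels. Genes averaging 1 FPKM or more over the 9 livers (9699) were kept, and their log2(FPKM + 1) values were fitted with limma 3.58.1 (lmFit, eBayes with trend) in R 4.3.3, 2 groups per fit, with Benjamini-Hochberg adjustment over all genes. A DEG needed an adjusted p within 0.05 and a log2 difference of 1 or more in size, the study's limits. The script was tested on simulated data. Tables and figures were made in Python 3.11.15 (pandas 2.3.3, numpy 2.4.6, matplotlib 3.10.9). Promoter windows came from RefSeq (GRCm38.p6), with windows for all 10 members.

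The members and the gene lists (other droplet genes, triglyceride synthesis, fatty acid uptake, HIF targets, PPARα targets, regulators and cell type markers) were chosen with earlier results of these data known. Named were all members, up to 4 DEGs of each list and comparison with the largest change, and the 5 profiles nearest to Hilpda and to Plin2. Some genes of the lists are not reported here. Cyp2e1, Cd68, Plin1 and Adipoq were named from the marker lists after their values were seen. The labels number the libraries of a group and name no mice, so each was taken as 1 liver, and p-values measure only the spread between these samples. For APAP versus NC, deviations of same-numbered libraries correlated at 0.213, 0.160 and 0.378, and those of differently numbered ones at -0.342 to 0.087. Deviations from a group mean depend on each other, so these values cannot establish pairs. The fits reported were therefore unpaired, with the block as an alternative. The value of 0.378 rests on the number that the description of NC replicate 3 gives, while its title numbers it 1, so that this pair is uncertain. The replicate block changed no member's call for APAP versus NC. Alternatives were a pseudocount of 0.1, other minimum levels, quantile normalization, a single fit, the block, no trend, voom on recovered reads, fits with 1 replicate left out and calls on the adjusted p alone.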

Additional observations from a re-analysis of the deposited data

How the results depend on the processing

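The counts of members in the report leave out Hilpda, a choice made after seeing the data. The 2 DEGs among the 9 others for AMSC versus APAP became 0 with all genes above 0 in the fit and 0 to 3 when single libraries were left out (0 without APAP replicate 3 or AMSC replicate 2, 3 or 4). With the block they were 2 again, but Plin4 and G0s2 in place of Plin4 and Plin5. In fits with AMSC livers the block rests on replicates 2 and 3 alone. For APAP versus NC the 2 became 5 with no minimum fold change and 2 to 3 without single libraries, and for AMSC versus NC the 6 became 5 with all genes above 0, with a single fit and without NC replicate 2, G0s2 being lost each time, and were 6 with the block. With Hilpda counted among 10 members, the 3 for AMSC versus APAP became 0 with all genes above 0, 3 with the replicate block and 1 to 4 without single libraries. The 3 for APAP versus NC became 6 with no minimum fold change and 3 to 4 without single libraries. The 7 for AMSC versus NC became 5 with all genes above 0 and with a single fit and 6 with the block. Hilpda was chosen for its values in these libraries, so its part in these counts is a description and no test. Of the other droplet genes, 1 was a DEG for APAP versus NC, 8 with no minimum fold change and 1 to 3 without single libraries (3 without APAP replicate 1). For AMSC versus APAP the count of 1 became 0 with all genes above 0, and for AMSC versus NC the count of 0 became 1 with voom and 6 with no minimum fold change. The fit with all genes above 0 held 24849 genes in place of 9699.

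Directions turned for log2 differences near 0. For APAP versus NC, leaving out single libraries moved G0s2 from -0.16 (without APAP replicate 2) to 1.09, and Plin3 from -0.23 to 0.029 (without NC replicate 1; 0.019 without APAP replicate 1). The same step for AMSC versus APAP moved Plin2 from -0.34 to 0.16 and Cidec from -0.47 to 0.43 (both highest without APAP replicate 2, and 0.02 and 0.14 without AMSC replicate 2), Brd2 from -0.083 to 0.22 and Sesn2 from -0.079 to 0.23. With the replicate block, Brd2 was at -0.18 and Sesn2 at -0.20 there. For AMSC versus NC, Mgll ran from -0.19 to 0.10 (without AMSC replicate 2; 0.05 without NC replicate 2). The cause was not tested.

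The AMSC livers shared with the other groups only replicate numbers 2 and 3, whose deviations correlated at -0.104 and -0.293 with the APAP livers and -0.199 and -0.309 with the NC livers, so the numbers were not taken as pairs. With the block, G0s2 became a DEG for AMSC versus APAP (-2.28, adjusted p = 0.000106 from limma), and Plin5 (0.99) fell under the minimum fold change. In fits with AMSC livers the block left the estimates resting on the libraries numbered 2 and 3 alone. AMSC replicate 4 and replicate 1 of the other group, which for APAP was the lowest APAP liver in G0s2, had no part in them. A minimum of 5 FPKM left Plin4 and Abhd5 untested. Values of Hilpda, Cidec and Plin4 in the NC group rest on 15 to 51 reads.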

Other observations

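Regulators of lipid genes and their target lists were also measured. Pparg, the receptor that drives fat storage genes, averaged 1.91 ± 0.333 FPKM in NC livers and fell to 0.229 ± 0.130 FPKM in APAP livers (log2 fold change -1.24, SE 0.15, adjusted p = 0.00133 from limma) and stood at 2.27 ± 0.747 FPKM in the AMSC group, higher than in the APAP group (1.39, SE 0.18, adjusted p = 0.0107, and 0.102 with all genes above 0 in the fit). It was the only one of 18 regulators that was a DEG in that comparison, beside 1.96% of all genes tested. Srebf1, which drives fatty acid synthesis, was lower in both APAP-treated groups than in the NC group, at means of 27.9 FPKM (APAP) and 19.7 FPKM (AMSC) against 92.6 FPKM. Hif1a rose in the APAP group to 15.7 ± 3.39 from 5.82 ± 0.302 FPKM. Of 30 targets of hypoxia-inducible factors 23 were tested. For APAP versus NC 4 rose, Slc2a1, Kdm3a and Ndrg1 among them, and none fell, beside 5.09% higher and 2.8% lower of all genes tested. The call of Ndrg1 (log2 fold change 1.02) was lost without NC replicate 1, APAP replicate 1 or APAP replicate 3 and with quantile normalization (0.94 to 0.97), and that of Slc2a1 with all genes above 0 in the fit (adjusted p = 0.0584). Beside 0.742% higher and 1.22% lower of all genes tested, 1 rose and none fell for AMSC versus APAP. It was Ddit4, an inhibitor of mTORC1, which stood at 8.79 ± 1.62 FPKM in the APAP group and 51.9 ± 8.39 FPKM in the AMSC group (log2 fold change 2.43, SE 0.17, adjusted p = 0.00115). In that comparison 6 of the 23 stood apart higher and 7 stood apart lower, and the median was 0.13. Of all genes tested, 27% did not overlap there in either direction. Slc2a1 was at 19.7 ± 9.30 FPKM in the APAP group and 9.24 ± 0.793 FPKM in the AMSC group, and Kdm3a was at 2.29 ± 0.338 FPKM in the AMSC group (log2 differences -0.90 and -0.60, adjusted p = 0.173 and 0.0505 from limma), with groups that did not overlap. Hif1a stood at 10.2 ± 0.877 FPKM in the AMSC livers, all below the APAP livers (adjusted p = 0.112). For AMSC versus NC 4 of the 23 targets rose and none fell, beside 3.92% higher and 2.09% lower of all genes tested. By the adjusted p alone 12 were higher and 1 lower, beside 26% of all genes tested in either direction. The median of the 23 was 0.58 for AMSC versus NC and 0.40 for APAP versus NC.

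All 30 targets of PPARα on the list were tested. For APAP versus NC 5 rose and 1 fell, beside 5.09% higher and 2.8% lower of all genes tested. Pdk4, Fgf21 and Angptl4 were up by 4.96, 3.87 and 3.41 on the log2 scale, and Aldh3a2 was at -2.90. For AMSC versus APAP 2 were DEGs in opposite directions, beside 1.96% of all genes tested. Aldh3a2 was higher (2.39, adjusted p = 0.0353 from limma) and Pdk4 lower (-1.85, adjusted p = 0.0220). The call of Aldh3a2 was lost without APAP replicate 3 or any one AMSC liver (adjusted p from 0.0877 to 0.122) and that of Pdk4 without AMSC replicate 2 (0.0568) or AMSC replicate 3 (0.0748), and both with all genes above 0 in the fit (0.189 and 0.142). Fgf21 and Angptl4 differed there by 0.31 (95% interval -0.48 to 1.09) and -0.64 (-1.28 to -0.01), and neither passed the test. For AMSC versus NC 7 rose and none fell, beside 3.92% higher and 2.09% lower of all genes tested, and the median of the list was 0.37.

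Over the other marker lists, summed levels in the NC, APAP and AMSC groups were 0.461 to 2.09, 7.89 to 36.0 and 4.86 to 6.27 FPKM for neutrophils, 135 to 254, 306 to 1406 and 183 to 312 FPKM for erythroid cells, and 18.7 to 39.6, 57.4 to 97.3 and 27.3 to 50.5 FPKM for cholangiocytes. They were 29.6 to 54.7, 36.3 to 80.7 and 34.1 to 55.7 FPKM for mesenchymal stromal cells, 51.7 to 85.8, 78.3 to 144 and 67.0 to 117 FPKM for stellate cells, 24.3 to 55.3, 29.1 to 84.1 and 24.6 to 27.2 FPKM for endothelial cells, and 4.12 to 5.29, 4.16 to 4.87 and 4.66 to 5.39 FPKM for adipocytes. Of the 11 neutrophil markers 7 stayed under 1 FPKM in every liver, as did 1 of 11 mesenchymal stromal and 1 of 5 cholangiocyte markers. Most of the cholangiocyte sum came from Spp1 and Sox9, at 34.3 to 59.8 and 21.4 to 33.1 FPKM in the APAP livers. For APAP versus NC, 5 of the 7 stellate markers tested were higher and 2 lower in the fit. Hand2 was a DEG there and lower, beside 2.8% lower of all genes tested.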
